A study of Caenorhabditis elegans with 2 samples.

Results

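Insulin-like peptides are small secreted hormones of Caenorhabditis elegans. The family described here comprises every gene whose symbol is ins followed by a number, together with daf-28, and the systematic name of each probe was looked up in RefSeq's gene table for assembly WBcel235. It holds 40 genes of 19806 with a named probe, and 102 of 43579 probes belong to it. The table lists 39 of them as protein coding and ins-38 as a pseudogene. Expression was measured on 2 one-colour arrays of total RNA from whole young adult worms of the N2 strain. The first group had been fed Lysinibacillus sphaericus isolated from soil and the second Escherichia coli OP50, the usual laboratory food, both from hatching at 20 °C. With 1 array per diet there was no replicate, so no test between the diets was made. How far separate worm populations differ is unknown.

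The worm makes an unusually large family of these peptides, mostly in neurons and in the intestine. They act on the single insulin receptor DAF-2, some as agonists and some as antagonists, and the receptor signals through the PI3 kinase AGE-1 and the kinases AKT-1 and AKT-2 to keep the FOXO transcription factor DAF-16 out of the nucleus. The pathway is known for its control of dauer arrest, lifespan, germline growth and resistance to pathogens, and several peptide genes respond to food and to bacteria in the environment.

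The 75th percentile of the processed signal was 3368 on the array of worms fed L. sphaericus (the L. sphaericus array) and 1440 on that of worms fed OP50 (the OP50 array). Levels below are therefore given as a percent of the 75th percentile of the same array, and differences are the log2 level on the L. sphaericus array minus that on the OP50 array. The lowest level that the scanner software called well above background was 0.765% on the L. sphaericus array and 1.09% on the OP50 array. A gene is called measured where at least 1 probe was well above background on both arrays. The technical error was small beside most differences. The software's own error of a log2 difference had a median of 0.21 over the measured family members, and the SD between probes of a gene had a median of 0.21 over the 11 members with at least 2 measured probes. Neither contains the spread between worm populations, and the number of arrays limits the precision.

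Most insulin-like peptide genes were lower in worms fed L. sphaericus, and a few were much higher. Of the 40 genes, 32 were measured on both arrays. Of these, 26 were lower by 2-fold or more on the L. sphaericus array, 2 were higher by 2-fold or more and 4 lay between. Among all 15300 measured genes, 32.6% were at least 2-fold lower and 22.1% at least 2-fold higher. The median difference of the family was −2.60, against −0.20 over all measured genes, and 18 of the 32 members lay in the lowest 10% of all genes. A further 3 members were well above background on the L. sphaericus array only and 3 on the OP50 array only, while ins-13 and ins-15 were not well above background on either. In whole-worm RNA, a smaller share of RNA from the cells that make a peptide and less of its RNA per cell cannot be told apart.

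**Figure D1:**
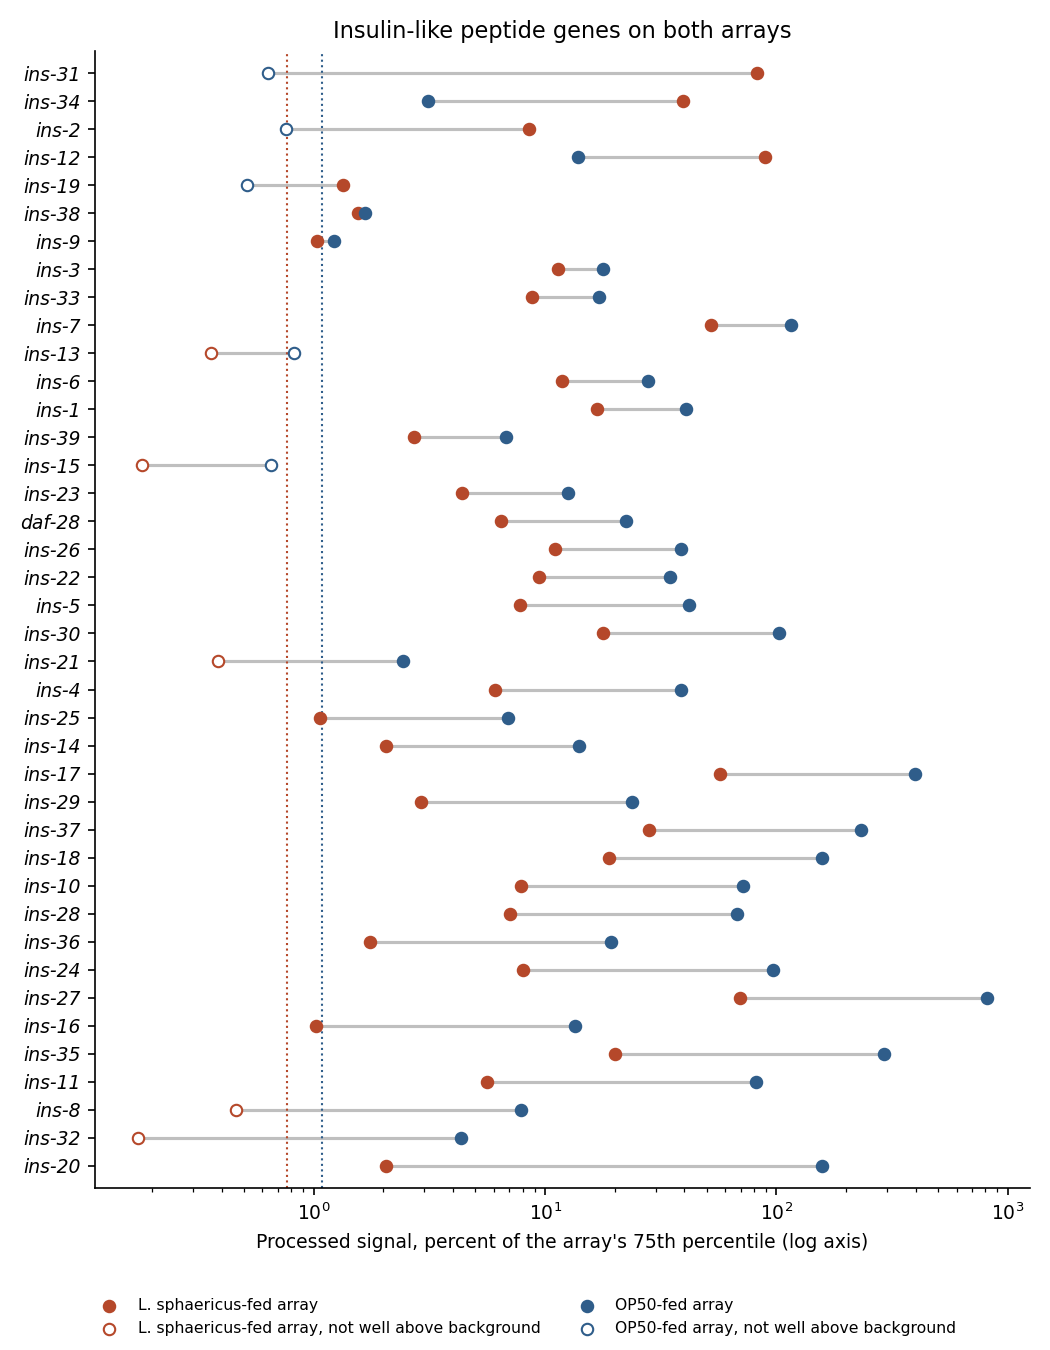
Levels of all 40 insulin-like peptide genes on the L. sphaericus array (red) and the OP50 array (blue), as a percent of each array's 75th percentile on a log axis, in order of the difference. Open circles are not well above background, and the dotted lines mark the lowest level well above background on each array. The red point lies left of the blue one for most genes, and ins-31, ins-34, ins-2, ins-12 and ins-19 at the top are reversed.

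How far the lower genes outnumber the higher ones depended on the scaling of the arrays, but the lower genes made up most of the measured members under every scaling tried. With scaling on the median probe, 21 members were at least 2-fold lower and 2 higher, against 20.8% and 37.9% of all genes. With ribosomal protein genes as the scale, the counts were 19 and 2, against 17.5% and 42.1%. With no scaling at all, they were 18 and 3, against 11.6% and 50.6%, the third higher member being ins-38, the pseudogene. These 3 settings moved the median of all genes by 0.64, 0.84 and 1.23, and, since each shifts every gene by the same amount, they leave the median of the family relative to all genes at −2.40 by construction. After loess centring along brightness, 22 members were lower and 2 higher, against 24.7% and 25.1% of all genes. A further filter kept probes whose mean log2 level over both arrays was no dimmer than that of the median probe. Among the 20 members left, 18 were lower and 1 higher, against 28.2% and 24.9% of all genes. A member dim on 1 array can pass this filter through the other. Thus ins-20 passed, at 2.06% with L. sphaericus and 158% with OP50, whereas ins-34, at 39.4% and 3.13%, did not. With dim probes kept, all 40 members had a value, and 31 were lower and 5 higher, against 33.2% and 20.5% of all genes.

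In all, 18 lower members stayed at least 2-fold lower in every setting in which they had a value. These were ins-4, ins-5, ins-10, ins-11, ins-14, ins-16, ins-17, ins-18, ins-20, ins-24, ins-25, ins-27, ins-28, ins-29, ins-30, ins-35, ins-36 and ins-37. Of the other 8, ins-22, ins-23, ins-26, daf-28, ins-1, ins-6 and ins-39 stayed below 0 but came within 2-fold under at least 1 scaling, and ins-7 turned above 0 with no scaling. Both higher members, ins-12 and ins-34, stayed at least 2-fold higher in every setting in which they had a value.

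**Figure D2:**
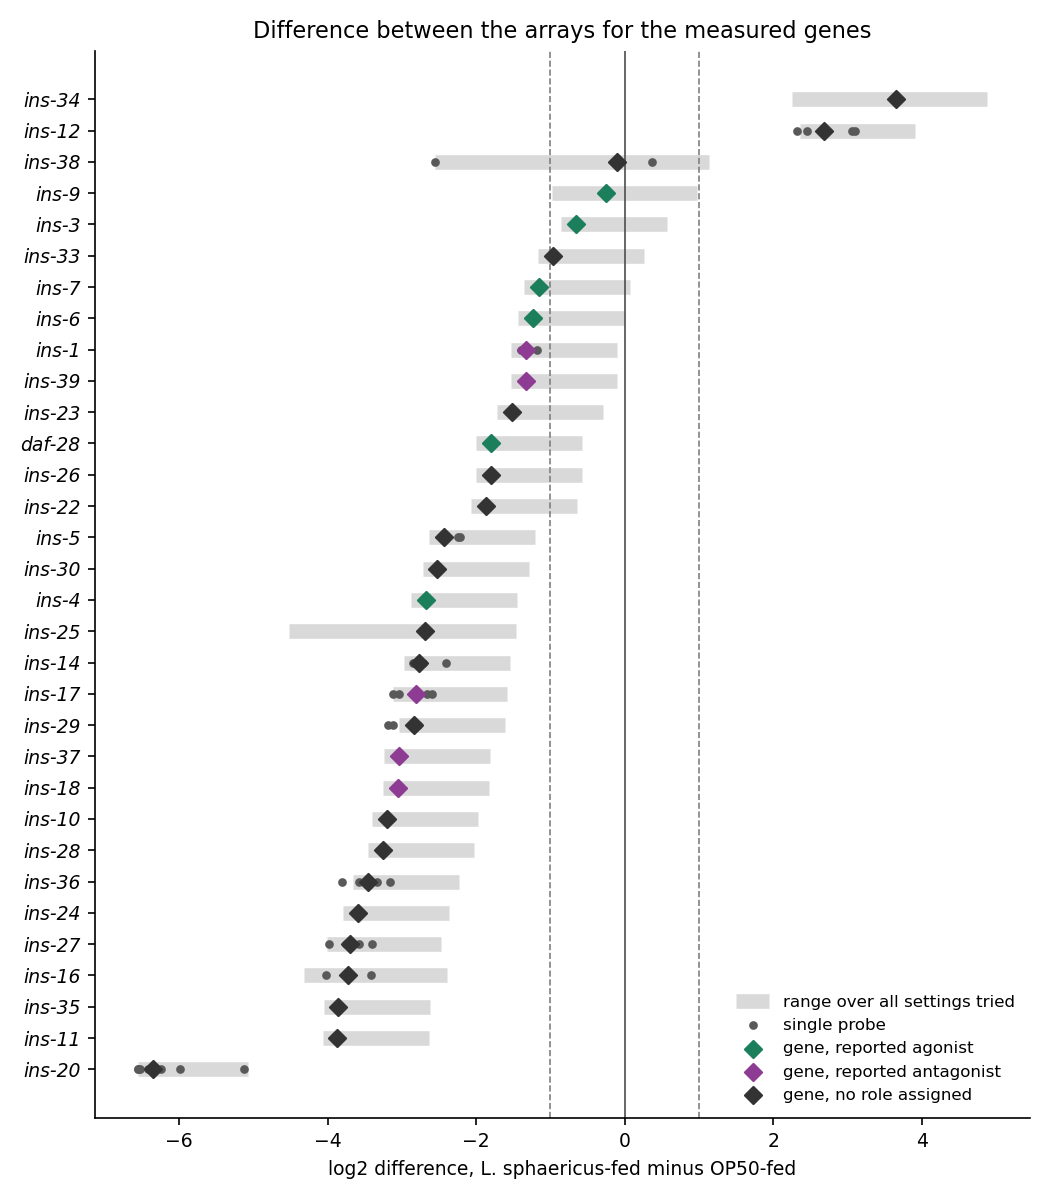
Log2 difference, L. sphaericus-fed minus OP50-fed, of the 32 measured genes (diamonds, coloured by reported role), with single measured probes as dots, the range over all settings tried as grey bars and 2-fold as dashed lines. The grey bars of 18 genes lie wholly left of −1, those of ins-34 and ins-12 wholly right of 1, and those of ins-38, ins-9, ins-3, ins-33 and ins-7 cross 0.

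Among the peptides reported from worm genetics as agonists of DAF-2, 6 of 7 were measured. Of these, 4 were lower by 2-fold or more and 0 higher (median −1.19), against 32.6% and 22.1% of all genes. With median scaling 2 of the 6 were lower, against 20.8% of all genes, and with no scaling 1, against 11.6%. The gene daf-28, whose peptide is made in sensory neurons and prevents dauer arrest, had a level of 6.45% on the L. sphaericus array and 22.5% on the OP50 array, a log2 difference of −1.80. The gene ins-4, which acts alongside daf-28, was at 6.06% with L. sphaericus and 38.6% with OP50 (−2.67). The gene ins-6, known for a role in leaving the dauer state, was at 11.8% with L. sphaericus and 27.8% with OP50 (−1.23). Of these 3 genes of dauer control, only ins-4 kept its 2-fold difference under every scaling tried, and the difference of ins-6 came to −0.01 with no scaling.

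The gene ins-7 encodes an agonist that is made in the intestine and in neurons and that is known to dampen DAF-16 activity in other tissues. Its level was 52.2% on the L. sphaericus array and 116% on the OP50 array, a difference of −1.15 that became 0.075 with no scaling. The gene ins-3, known to promote germline proliferation in larvae, was at 11.4% with L. sphaericus and 17.9% with OP50 (−0.65), and its sign turned with loess centring, no scaling and ribosomal scaling. Thus ins-7 and ins-3 were among the members least far from all genes, at the 29.6th and 40.6th percentile of the differences of all measured genes.

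The last 2 agonists were dim. Only 1 of the 5 probes of ins-9 was well above background on both arrays, at 1.03% on the L. sphaericus array and 1.22% on the OP50 array (−0.25), and its sign turned under 5 of the settings. The gene ins-32 was not well above background on the L. sphaericus array. It was at 4.32% on the OP50 array, so that with L. sphaericus it was at least 5.64-fold lower. This bound was 2.41-fold with no scaling.

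The 5 genes reported as antagonists were all measured and were lower by 2-fold or more (median −2.81), against 32.6% of all genes. The gene ins-18 was at 18.9% on the L. sphaericus array and 157% on the OP50 array (−3.05, 1 probe). The gene ins-37 was at 28.1% with L. sphaericus and 231% with OP50 (−3.04, 1 probe). The gene ins-17 was at 57.0% with L. sphaericus and 399% with OP50, with a difference of −2.81 ± 0.21 (SD over 6 probes). These 3 genes were at least 7.01-fold lower and lay in the lowest 5% of the differences of all genes. The others differed less. The gene ins-1, whose peptide resembles human insulin and acts in salt learning, was at 16.8% with L. sphaericus and 40.7% with OP50, with a difference of −1.32 ± 0.11 (SD over 3 probes). The gene ins-39 was at 2.72% with L. sphaericus and 6.80% with OP50 (−1.32, 1 probe). With no scaling ins-1 and ins-39 were both at −0.10. With median scaling and with no scaling, 3 of the 5 antagonists were lower by 2-fold or more, against 20.8% and 11.6% of all genes. Whether the medians of agonists and antagonists differ was not tested.

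The largest difference among the measured members belonged to ins-20. Its 9 probes, all well above background on both arrays, gave a median level of 2.06% on the L. sphaericus array and 158% on the OP50 array. The log2 difference was −6.35 ± 0.45 (SD over 9 probes), an 81.8-fold lower level, and only 0.131% of all measured genes lay lower. It was −5.07 with normexp background correction and −5.13 both with the brightest probe and with no scaling. Its probes ranged from −6.56 to −5.13. No other measured member came within 2 log2 units of it.

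Next in order came ins-11, ins-35, ins-16 and ins-27, all between 13.02-fold and 14.59-fold lower. The gene ins-11 encodes an intestinal peptide known to act in the avoidance of pathogenic bacteria. It was at 5.58% on the L. sphaericus array and 81.5% on the OP50 array (−3.87). The gene ins-35, also known from the intestine, was at 20.1% with L. sphaericus and 291% with OP50 (−3.85). Both rest on 1 probe. The gene ins-27 was at 69.6% with L. sphaericus and 815% with OP50, with a difference of −3.70 ± 0.21 (SD over 5 probes). These 4 genes differed from one another by less than the technical error.

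For ins-16 and ins-25 most probes were well above background on the OP50 array only, and the measured ones lay closer to 0 than the rest. Only 2 of the 5 probes of ins-16 were well above background on both arrays, at 1.02% on the L. sphaericus array and 13.4% on the OP50 array (−3.72 ± 0.43, SD over 2 probes). Over all 5 probes, each of them above background on the OP50 array, the median was −4.32. For ins-25, 1 of 5 probes was measured, at 1.07% with L. sphaericus and 6.88% with OP50 (−2.69), and the median over all 5 was −4.52.

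The remaining lower members without an assigned role lay between these genes and 2-fold. The gene ins-24 was at 8.05% with L. sphaericus and 96.8% with OP50, which is 12.02-fold lower. The gene ins-36 was at 1.75% with L. sphaericus and 19.2% with OP50 (10.98-fold lower). The genes ins-28 and ins-10 were 9.55-fold and 9.17-fold lower, at 7.06% and 7.83% with L. sphaericus and at 67.5% and 71.8% with OP50. All 4 were thus about an order of magnitude lower. The genes ins-29, ins-14, ins-30 and ins-5 were between 7.13-fold and 5.38-fold lower, with levels from 2.06% to 17.9% with L. sphaericus and from 13.9% to 103% with OP50. Where several probes were measured they lay close together, with SDs of 0.25 for ins-36, 0.19 for ins-29, 0.18 for ins-14 and 0.11 for ins-5 (5 probes each). The genes ins-22, ins-26 and ins-23 were 3.66-fold, 3.50-fold and 2.87-fold lower, with levels from 4.38% to 11.01% with L. sphaericus and from 12.6% to 38.5% with OP50. All 9 lower members with at least 2 measured probes had every measured probe at least 2-fold lower.

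On the other side of the family, ins-31, ins-34, ins-2 and ins-12 were higher with L. sphaericus. The gene ins-31 had 1 probe, at 82.1% on the L. sphaericus array and 0.635%, not well above background, on the OP50 array. It was at least 75.4-fold higher, and this bound lay between 65.6-fold and 176-fold over the scalings by a constant. The gene ins-34 was at 39.4% with L. sphaericus and 3.13% with OP50 (3.66, 12.6-fold higher, 1 probe), and its difference was 2.26 with normexp background correction and 4.88 with no scaling. The gene ins-12 was at 89.5% with L. sphaericus and 13.9% with OP50, with a difference of 2.68 ± 0.35 (SD over 5 probes), and all 5 probes were at least 4-fold higher. The gene ins-2 was at 8.52% with L. sphaericus and 0.757% with OP50, not well above background on the OP50 array, and was at least 7.82-fold higher (18.3-fold with no scaling). Of all measured genes, 99.1% had a lower difference than ins-34 and 97.5% a lower one than ins-12.

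For ins-19, ins-8 and ins-21, too, only a bound can be given. All 5 probes of ins-19 were above background on the L. sphaericus array only, at 1.34% against 0.514% on the OP50 array, and the gene was at least 1.23-fold higher. The gene ins-8 was at 0.459% on the L. sphaericus array, not well above background, and at 7.90% on the OP50 array, which makes it at least 10.3-fold lower, and at least 4.42-fold with no scaling. The gene ins-21 was at 0.387% with L. sphaericus, not well above background, and at 2.44% with OP50, at least 3.19-fold lower, and at least 1.36-fold with no scaling. All 3 were dim on the brighter array too.

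Of the 4 measured members within 2-fold, ins-3 and ins-9 are described above. The gene ins-33, which together with ins-3 is known to act on larval germline proliferation, was just inside the threshold, at 8.79% on the L. sphaericus array and 17.1% on the OP50 array (−0.96), and turned above 0 with no scaling. The probes of the pseudogene ins-38 disagreed. The median of its 3 measured probes was −0.10 with an SD of 1.57, their range was −2.55 to 0.37, and its sign turned under 5 of the settings.

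**Figure D3:**
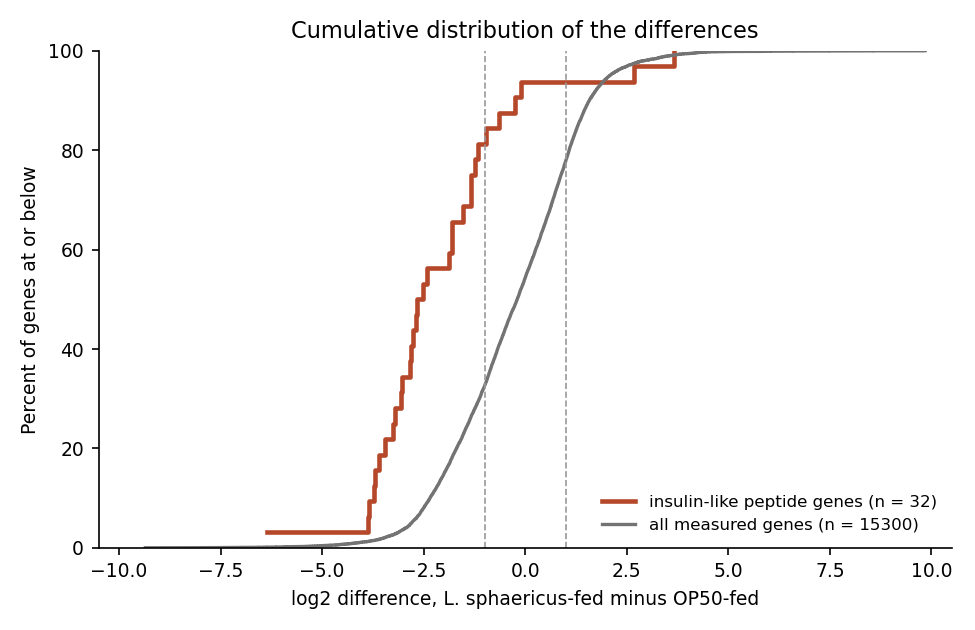
Cumulative percent of genes (vertical axis) at or below a log2 difference, L. sphaericus-fed minus OP50-fed (horizontal axis), for the 32 measured insulin-like peptide genes (red) and all 15300 measured genes (grey), with 2-fold as dashed lines. The red curve reaches 81.3% at the lower dashed line, where the grey curve is at 32.6%.

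Many of these genes lie next to one another in the genome. Counting members with at most 5 other protein-coding genes between them as neighbours, 25 of the 40 fall into 7 clusters. The largest holds ins-28, ins-29, ins-25, ins-27, ins-24, ins-30 and ins-26 in this order, and all 7 were lower, with differences from −3.70 to −1.81. With no scaling and with ribosomal scaling, ins-26 came within 2-fold. In the cluster of ins-21, ins-22 and ins-23, all 3 were on the lower side. In the pair of ins-8 and ins-7 both were lower with the 75th percentile, ins-7 turning above 0 with no scaling.

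Other clusters held members on both sides. Of the neighbours ins-12 and ins-11, ins-12 was higher (2.68) and ins-11 lower (−3.87), and the third member, ins-13, was not well above background on either array. In the cluster of ins-2, ins-3, ins-4, ins-5, ins-6 and ins-20, the gene at one end, ins-2, was at least 7.82-fold higher and the gene at the other end, ins-20, was 81.8-fold lower, with the 4 between them at −2.67 to −0.65. In the pair of ins-19 and ins-31 both were well above background on the L. sphaericus array only. Probe sequences were not used here, and so cross-hybridisation between related neighbours was not tested.

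**Figure D4:**
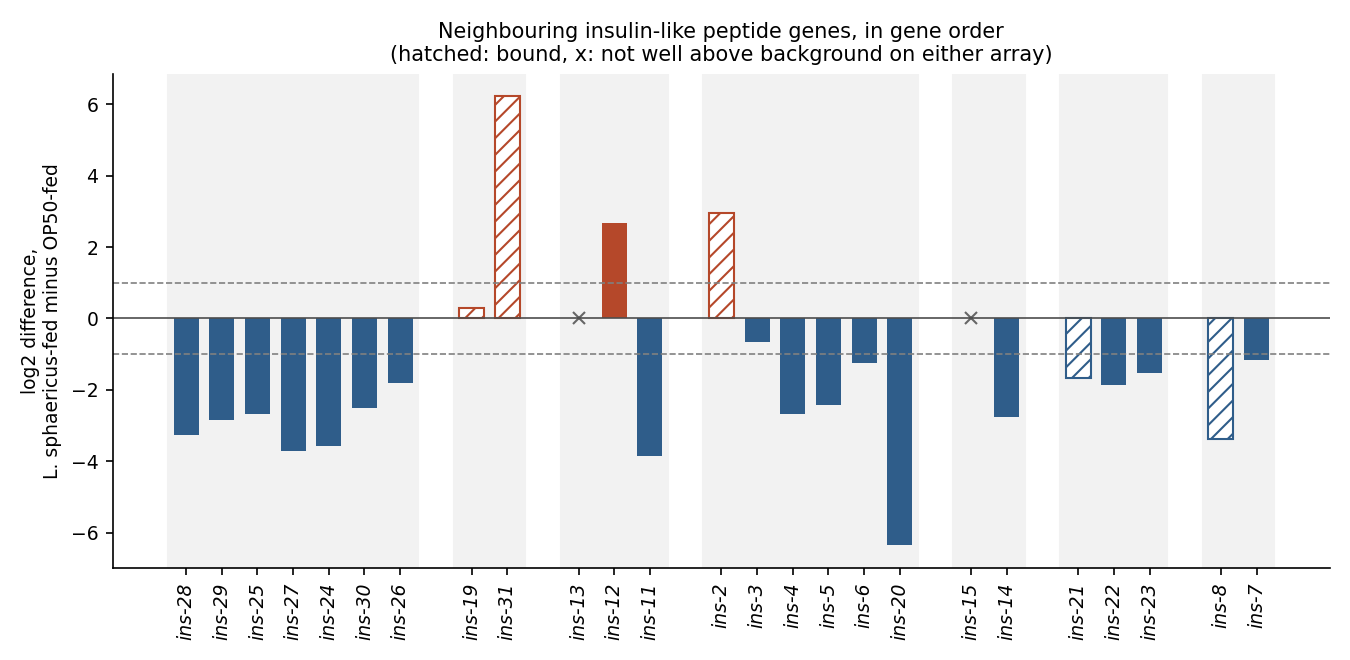
Log2 difference, L. sphaericus-fed minus OP50-fed, of the 25 members that lie in 7 clusters of neighbouring genes (grey panels, genes in their order in the genome). Hatched bars are bounds, crosses are genes not well above background on either array and dashed lines mark 2-fold. All 7 genes of the first cluster lie below −1, whereas ins-12 and ins-11, and ins-2 and ins-20, lie on opposite sides of 0.

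Of 13 measured genes on a list for the maturation and secretion of peptide hormones, 8 were lower by 2-fold or more and 0 higher (median −2.53), against 32.6% and 22.1% of all genes. The 8 include snet-1 (−3.33), a peptide gene rather than part of the machinery, and the median counts it. The lower ones include egl-3, whose proprotein convertase cleaves peptide precursors, at 78.7% on the L. sphaericus array and 794% on the OP50 array (−3.34 ± 0.20, SD over 2 probes). The gene sbt-1, for the chaperone of that convertase, was at 187% with L. sphaericus and 1742% with OP50 (−3.22). The gene kpc-1, for another proprotein convertase, was at 29.2% with L. sphaericus and 168% with OP50 (−2.53 ± 0.04, SD over 6 probes). The gene ida-1, for a protein of dense-core vesicles, was at 85.2% with L. sphaericus and 654% with OP50 (−2.94). The other 5 lay within 2-fold. They are hid-1 (0.00), asna-1 (−0.35), unc-31 (−0.53), unc-108 (−0.60) and aex-5 (−0.94), and each of them turned sign under at least 1 setting. With no scaling, 7 of the 13 were lower and 1, hid-1, was higher.

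Genes downstream of the peptides were lower and higher in shares near those of all genes. Of 15 genes of insulin signalling, all measured, 4 were at least 2-fold lower, 4 were at least 2-fold higher and 7 lay between, with a median of −0.11, against 32.6% lower, 22.1% higher and −0.20 over all genes. The receptor gene daf-2 was at 65.1% on the L. sphaericus array and 159% on the OP50 array (−1.40 ± 0.33, SD over 7 probes). The PI3 kinase gene age-1 was at 140% with L. sphaericus and 61.1% with OP50 (1.19 ± 0.17, SD over 3 probes). The largest difference on the list was that of daf-18, at 1700% with L. sphaericus and 420% with OP50 (2.02 ± 0.18, SD over 3 probes). The others past 2-fold were ist-1 (−1.83), akt-2 (−1.68) and pptr-1 (−1.13), all lower, and hcf-1 (1.08) and eak-7 (1.05), both higher. With no scaling daf-2 was at −0.17, and the counts were 0 lower and 8 higher, against 11.6% and 50.6% of all genes.

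Marker genes of 6 tissues are given here beside the family, to be read against the 32.6% of all genes that were lower by 2-fold or more, the 22.1% that were higher and their median of −0.20. Of 12 neuron markers, one of them (egl-21) also in the maturation list, 6 were lower by 2-fold or more and 1 higher. Their median was −0.93, with a summed level of 2376% on the L. sphaericus array and 3614% on the OP50 array. Most of the difference between these sums came from egl-21, at 143% with L. sphaericus and 1201% with OP50. The brightest neuron marker, snb-1, was at 1867% and 1873%. With no scaling, 1 of the 12 was lower and 3 were higher. The intestine markers lay near all genes, with 3 of 9 lower and 1 higher (median −0.23, summed level 13570% with L. sphaericus and 21576% with OP50). Most of the difference between these sums came from asp-1, at 6026% with L. sphaericus and 12345% with OP50. Of 12 germline and oocyte markers, 11 were higher and 0 lower (median 2.25, summed level 20507% with L. sphaericus and 5120% with OP50), and of 10 sperm markers, 8 were lower and 0 higher (median −2.01, summed level 709% with L. sphaericus and 1694% with OP50). Of 10 epidermis markers, 1 was lower and 3 higher (median −0.17, summed level 5716% with L. sphaericus and 4157% with OP50), and all 8 body wall muscle markers lay within 2-fold (median −0.71, summed level 4740% with L. sphaericus and 5378% with OP50). With no scaling, 11.6% of all genes were lower and 50.6% higher. The counts were then 1 lower and 5 higher for intestine, and 0 and 12 for germline and oocyte. For sperm they were 4 and 1, for epidermis 0 and 5, and for body wall muscle 0 and 3. Each of the 6 tissues had markers well above background on both arrays, and only such markers were counted. The part of tissue composition in the differences of the insulin-like peptide genes was not tested.

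**Figure D5:**
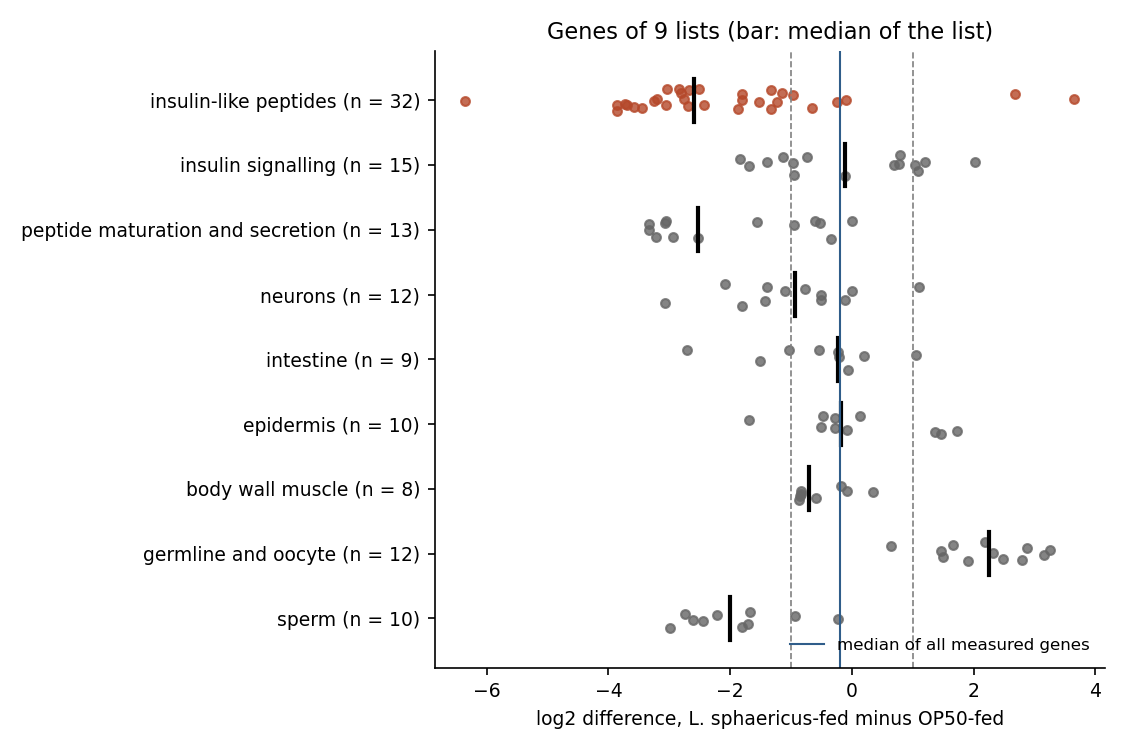
Log2 difference, L. sphaericus-fed minus OP50-fed, of the measured insulin-like peptide genes (red) and of the genes of 8 other lists (grey), with the median of each list as a black bar, the median of all measured genes as a blue line and 2-fold as dashed lines. The medians of the insulin-like peptides (−2.60) and of the maturation and secretion list (−2.53, snet-1 included) lie below that of the neuron markers (−0.93). The median of the sperm markers (−2.01) also lies below that of the neuron markers. That of insulin signalling (−0.11) lies near all genes (−0.20).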

How the data were processed

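Per the file headers, the authors read the arrays with Agilent Feature Extraction 11.0.1.1, and the deposited intensity values are background-subtracted processed signals on a linear scale with their errors. Other deposited columns, such as flags, are marks of the software. The deposited table of the whole series held the same intensity values, neither scaled nor centred, within 0.01 log2 units for 43571 probes on the L. sphaericus-fed array and 43567 on the OP50-fed array, of 43579. The array design cites build ce4 (WS170) and the gene table WBcel235, so that table served for names and neighbours only, and no coordinates are given.

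Control and outlier spots were left out. The log2 processed signal was averaged over spots of a probe and the 75th percentile of the array subtracted. A gene's difference is the median over probes well above background on both arrays (31044 of 43579 probes), and its level the median over the same probes. Where no probe passed on one of the arrays, the fold is a bound: the dim level was replaced by that array's lowest level well above background if it lay below it. Errors are the SD between probes or the software's error. The calculation was tested on simulated data. Python 3.11.15, numpy 2.4.6, pandas 2.3.3, statsmodels 0.14.6 and limma 3.58.1 were used.

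Named genes follow a rule: all members are accounted for, and those with a reported role, the 5 lowest and 5 highest differences, and those with a bound are given in full. Other genes come from 2 pathway lists and 6 marker lists. Members and lists were chosen with earlier results of these data known. A planned grouping by cysteine content was not made, since no protein sequences were used here. The alternatives were normexp background correction (offset 50, on the median spot signal), 6 scalings, 2 filters on dim probes, 2 ways to combine probes, the deposited table and thresholds of 1.5-fold and 3-fold.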

Additional observations from a re-analysis of the deposited data

How the results depend on the processing

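The median of the family relative to all genes was below 0 in every setting, at −2.40 with the 75th percentile, −1.71 with normexp background correction and −2.15 after quantile normalization. It was −1.997 both after loess centring and without the filter on dim probes. With probes no dimmer than the median on average over both arrays, it was −2.79. Members higher by 2-fold or more numbered 2 in most settings. With no scaling they numbered 3, the pseudogene ins-38 being added. Without the filter they were 5 of 40, where ins-2, ins-19 and ins-31 are added on dim OP50-fed signals. With probes no dimmer than the median on average over both arrays they were 1 of 20, where fewer genes are compared. The number at least 2-fold lower lay between 18 and 31 over the settings, out of different numbers of members. It was 18 of 32 with no scaling, against 11.6% of all genes. With probes no dimmer than the median it was 18 of 20, against 28.2%, and without the filter 31 of 40, against 33.2%. Of 372 single values tried for the measured members, 1 member past 2-fold turned, ins-7, at 0.075 with no scaling. Many of the 372 values could not differ from the main ones. The deposited table holds the same intensities, and combining probes otherwise changes nothing for the 21 members with 1 measured probe. Keeping dim probes changes nothing for the 28 members measured on all their probes. Normexp background correction moved ins-16 to −2.39, ins-36 to −2.53, ins-25 to −1.93 and ins-14 to −2.08. The causes were not tested. No paired analysis was possible because each diet has 1 array. A replicate could not be left out for the same reason. Only some probes of ins-9, ins-16, ins-25 and ins-38 were well above background on both arrays.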

Other observations

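The other protein-coding genes that lie within these clusters, or directly beside them, were mostly lower with the 75th percentile as the scale. Of 12 with a value, 9 were lower by 2-fold or more and 1 higher (median −1.17), against 32.6% lower and 22.1% higher among all genes. With median scaling 3 of the 12 were lower and 1 higher, against 20.8% and 37.9% of all genes, and with no scaling 1 was lower and 2 were higher, against 11.6% and 50.6%. The gene C17C3.3, beside ins-11, was at 4.34% of the 75th percentile on the L. sphaericus-fed array and 74.2% on the OP50-fed array, a log2 difference of −4.10. The single gene between ins-6 and ins-20, ZK84.4, was at 5.49% with L. sphaericus and 10.98% with OP50, a difference that turned above 0 with no scaling. The gene chil-24, beside ins-31, was at 77.0% with L. sphaericus and 174% with OP50 (−1.18, turning above 0 with no scaling), whereas ins-31 was at least 75.4-fold higher. These genes were named after their values were seen.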
